A study of Mus musculus with 18 samples.

Results

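The genes described here encode the proteins of the cytosolic ribosome. They were taken as the protein-coding genes whose mouse symbol begins with Rpl or Rps and a number, or is Rplp0, Rplp1, Rplp2 or Rpsa. Kinases of the Rps6k family (10 genes) and symbols marked as pseudogene copies (6 protein-coding rows) were left out. This gave 86 of 21596 protein-coding genes, among 46078 genes in all, with 52 members named for the large subunit and 34 for the small subunit. The rule used symbols and no measured value.

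RNA sequencing was performed on E14 mouse embryonic stem cells (strain label 129m wt) kept for 24 h in serum + LIF medium on fibronectin-coated StemBond hydrogels. These are polyacrylamide gels in which the co-factor AHA sets how densely matrix protein is tethered. Soft gels had a modulus of about 750 Pa and stiff gels of about 160 kPa. AHA was added at 80 mM (high), 48 mM (mid) or 16 mM (low) to gels of either stiffness, which gave 6 groups of 3 libraries. All groups shared the cell line, medium, coating and time, so none is an untreated control, and the cells are 1 line. The labels do not say whether the libraries of a group came from separate cultures, so p-values measure only the spread between these libraries, which may be technical.

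The libraries held 5850621 to 9290261 counts in genes and 4087001 to 6503452 in protein-coding genes. A soft, high AHA library (replicate 1) had 1.37% of its counts in spike-in RNA, against 0.607% to 0.725% in the other 17, and it was left out of the fit because the study set aside libraries with a high spike-in share. The fit thus had 8 soft and 9 stiff libraries, with 2 for soft gels with high AHA. Between libraries of a group the chi-square of the member counts was 1.66 to 6.26 per degree of freedom, so no pair of replicates agreed within sampling noise. Pluripotent cell markers, which define the labelled cell type, summed to 2658 to 2832 CPM (counts scaled to the library total) on soft and 2450 to 2602 CPM on stiff gels, so that every soft library lay above every stiff one. Fibroblast markers summed to 119 to 200 CPM on soft and 173 to 244 CPM on stiff gels, Lum and Dcn among them failing the filter on low counts, and primitive endoderm markers summed to 198 to 260 CPM on soft and 164 to 201 CPM on stiff gels. The part of these differences in any result below was not tested. In such bulk samples, fewer cells of a type and less RNA per cell cannot be told apart.

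A ribosome joins a small subunit, which reads the messenger RNA, and a large subunit, which joins the amino acids. Each subunit is built on ribosomal RNA from a set of proteins that are mostly present as a single copy, so their synthesis is coordinated. Much of that control acts on translation: many ribosomal protein mRNAs begin with a terminal oligopyrimidine (TOP) tract, through which mTOR and Larp1 set how strongly they are translated, and transcription is raised by Myc. Dividing cells such as embryonic stem cells make ribosomes at a high rate. The genes have also left many processed pseudogenes, intronless copies of their mRNAs spread through the genome, and short reads may fit a gene and its copies equally well.

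The beginnings of several coding sequences are shown because they let a reader see which members have a start of their own and which share it with copies. Each is the first 50 coding bases from the GRCm38 genome with the GENCODE annotation, 5′ to 3′, with the start codon in capitals. The first 3 have the highest levels per length of all members and share their window with no other annotated gene. They are Rpl8 at chr15:76904313-76904362 (plus strand), Rplp1 at chr9:61914379-61914428 (minus strand) and Rpl4 at chr9:64173431-64174870 (plus strand), where an intron interrupts the window. The window of Rpl13 at chr8:123102659-123102708 (plus strand) recurs in 3 pseudogenes, and that of Rpl29 at chr9:106429978-106430320 (plus strand, with an intron) in 18 other genes, 16 of them pseudogenes.
Rpl8: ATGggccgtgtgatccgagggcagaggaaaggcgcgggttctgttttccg
Rplp1: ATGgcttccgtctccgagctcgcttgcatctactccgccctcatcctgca
Rpl4: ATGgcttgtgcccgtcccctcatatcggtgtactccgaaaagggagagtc
Rpl13: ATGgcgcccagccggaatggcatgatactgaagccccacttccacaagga
Rpl29: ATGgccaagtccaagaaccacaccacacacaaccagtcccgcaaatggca

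A further 4 windows show members that resemble each other. Rps27 at chr3:90213258-90213615 (minus strand, with an intron) and its retrotransposed copy Rps27rt at chr9:114982658-114982707 (minus strand) were identical at 50 of 50 bases. Rpl39 at chrX:37084042-37085127 (minus strand, with an intron) and its paralogue Rpl39l at chr16:10174310-10174359 (plus strand) were identical at 46 of 50 bases.
Rps27: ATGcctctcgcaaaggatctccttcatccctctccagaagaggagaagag
Rps27rt: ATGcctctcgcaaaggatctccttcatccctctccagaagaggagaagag
Rpl39: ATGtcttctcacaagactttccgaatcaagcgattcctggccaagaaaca
Rpl39l: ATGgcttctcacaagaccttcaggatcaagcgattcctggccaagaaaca

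Over the 84 members with such a window, 22 windows occurred in no other gene and 59 occurred in at least 1 pseudogene, with up to 18 pseudogenes for Rpl21. The other paralogue pairs were less alike. Of 50 bases, 42 were identical between Rpl36a and Rpl36al and between Rpl10 and Rpl10l, 39 between Rpl3 and Rpl3l, 34 between Rps27 and Rps27l, 25 between Rpl22 and Rpl22l1, and 19 between Rpl7 and Rpl7l1.

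The start of transcription was looked up because TOP tracts are the family's common feature. Sequences 30 bases before and 20 bases after the RefSeq start (GRCm38.p6) are shown, with a tract of C followed by at least 4 pyrimidines (C or T) in capitals where it begins at the start. Rps27 (chr3:90213629-90213678, minus strand) and Rplp2 (chr7:141447621-141447670, plus strand) had such a tract. Rpl13 (chr8:123102320-123102369, plus strand) and Rpl4 (chr9:64173357-64173406, plus strand), the members that differed between soft and stiff gels, had none at the annotated start. The same held for most starts of the family.
Rps27: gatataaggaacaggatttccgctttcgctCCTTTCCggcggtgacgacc
Rplp2: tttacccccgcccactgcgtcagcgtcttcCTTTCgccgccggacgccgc
Rpl13: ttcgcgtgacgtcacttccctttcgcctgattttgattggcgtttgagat
Rpl4: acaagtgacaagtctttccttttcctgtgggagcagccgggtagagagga

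Promoter sequences matched 65 members with 77 starts. A tract on the transcribed strand began exactly at the annotated start in 14 of these (18.2%), against 823 of 32851 starts of all genes (2.51%). Allowing the tract to begin within 5 bases of the start gave 32 of 77 (41.6%) against 6027 of 32851 (18.3%). The match depends on where the annotation puts the start, and a window without it says nothing about the factor that reads the tract.

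Levels were compared between genes as CPM per kb of the principal transcript, averaged over the 17 libraries. The family spanned a wide range on this scale. Rplp1, an acidic protein of the stalk that recruits elongation factors, stood first at 2311 CPM per kb, with libraries from 2118 to 2553. Rpl8, which lines the peptidyl transferase region, followed at 1784 CPM per kb (1694 to 1876) and Rpl4, which reaches into the exit tunnel, at 1188 CPM per kb (1116 to 1248). The ranges of these 3 genes over the libraries did not overlap, so their order was the same in every library. Among small subunit genes, Rps9 reached 532 CPM per kb (485 to 585).

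At the low end, 5 tested members lay between 2.56 and 3.72 CPM per kb. In rising order these were Rpl29, Rpl23a, Rps23, Rps25 and Rpl35, and each of their ranges overlapped that of the next. They rested on few reads, with median counts of 9 for Rpl23a, 10 for Rpl29, 16.5 for Rps23, 18.5 for Rpl35 and 25.5 for Rps25. The remaining 2 members failed the filter on low counts: Rps27rt had 0 to 6 counts per library and Rpl3l, a paralogue known from muscle, had 0 to 11. The 84 others were tested, 51 of the large and 33 of the small subunit.

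The subunits had similar levels at the median, 36.9 CPM per kb for the 52 large and 44.6 CPM per kb for the 34 small subunit genes. Of all 86 members, 24 lay at 100 CPM per kb or above (15 large, 9 small) and 12 lay below 10 (7 large, 5 small). The coefficient of variation between the 17 libraries was 10.3% at the median, 2.95% for Rpl8 and 65.6% for Rps27rt.

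**Figure D1:**
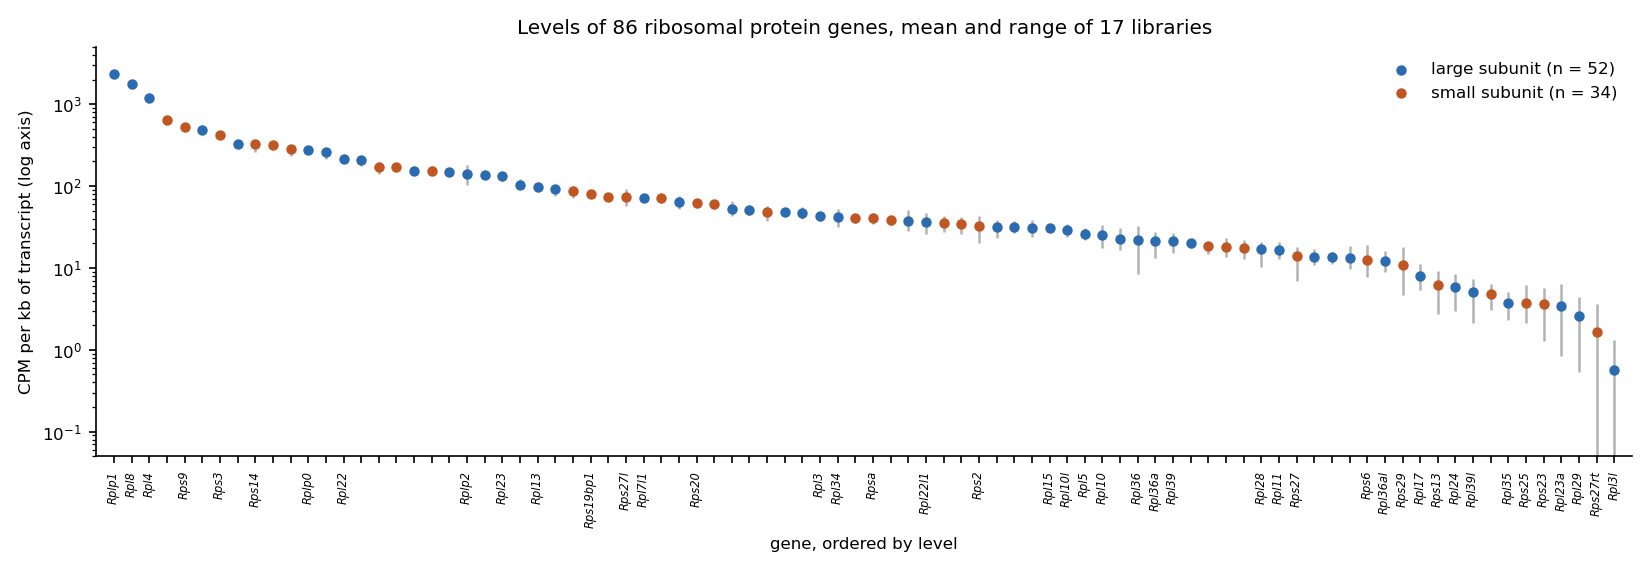
Level of each of the 86 ribosomal protein genes in CPM per kb of transcript on a log axis, ordered from highest to lowest, names given for the genes described in the text, with points for the mean and vertical lines for the range of the 17 libraries, large subunit in blue and small subunit in orange (lines that reach 0 in a library are clipped at the bottom). Rplp1, Rpl8 and Rpl4 stand at 1188 CPM per kb or above, and the tested genes reach down to 2.56 CPM per kb.

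Part of each transcript could not be told from other genes. Among all 50-base words of the principal transcript, a median of 57.5% occurred in no other annotated gene, ranging from 1.35% for Rps27 to 100%. The same median was 100% for the 78 mitochondrial ribosomal protein genes and 100% for the 45 ribosome biogenesis factors looked at. Members with under 25% of such words (18 genes) had a median level of 21.7 CPM per kb, those between 25% and 75% (49 genes) 41.1, and those at 75% or above (19 genes) 72.0. Rpl3, a large subunit protein near the catalytic centre, had 14.4% and lay at 42.7 CPM per kb, whereas Rpl8 had 93.5% and lay at 1784 CPM per kb. Rplp1 had 40% and yet the highest level, and Rpl39l had 100% and 5.15 CPM per kb.

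Across the 86 genes the Spearman correlation of this share with the level was 0.241 for words of 50 bases and 0.323 for words of 75 bases, and that of the number of pseudogenes sharing a word was -0.334. These are descriptions across genes, which share libraries, are related in sequence and are not independent replicates. Whether sharing of reads set the low levels was not tested. Overlap with other genes adds to this. Exons lay under a gene on the opposite strand for 66.2% of their length in Rpl35 and 59.7% in Rpl23a, and under a gene on the same strand for 47.0% in Rpl24 and 35.4% in Rpl13a, so the counts of these genes are uncertain.

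**Figure D2:**
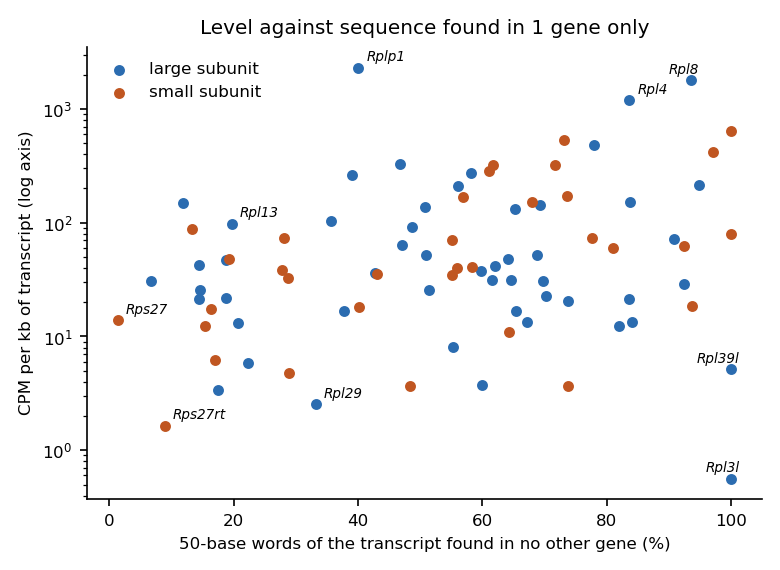
Level in CPM per kb of transcript (log axis) of each of the 86 genes against the percentage of its 50-base words found in no other annotated gene, large subunit in blue and small subunit in orange. Levels scatter widely at every percentage, with a Spearman correlation of 0.241 across genes.

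Paralogues that passed the filter, and Rps19bp1, had low to intermediate levels. Rps27l (72.8 CPM per kb), a p53-responsive relative of Rps27, and Rpl7l1 (72.0) were the highest paralogues. Rpl22l1 had 36.5 CPM per kb against 213 for Rpl22. Rpl10l, an autosomal copy best known from male germ cells, had 28.7 CPM per kb against 25.5 for the X-linked Rpl10, with overlapping library ranges (23.6 to 34.3 and 17.5 to 33.3). Since 92.4% of the words of Rpl10l but 14.6% of those of Rpl10 occurred in no other gene, the levels of this pair are not comparable as expression. The same limit holds for Rpl36al (12.3 CPM per kb, 81.9% of words in no other gene) and Rpl36a (21.5 CPM per kb, 14.5%). Rpl39l had 5.15 CPM per kb against 21.2 for Rpl39. Rps19bp1, whose product binds Rps19 and is not a ribosomal protein although its symbol fits the rule, had 79.2 CPM per kb. In none of the comparisons below was a paralogue or Rps19bp1 past the threshold.

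The summed counts of the family asked how much of the transcriptome it took up on each gel. The large subunit genes held 0.834% to 0.916% of protein-coding counts in the 17 libraries, and the small subunit genes 0.353% to 0.390%. For the large subunit the group means were ordered from low to high AHA on either stiffness, with steps no larger than about the spread between replicates. On soft gels it was 0.871% ± 0.011 at low, 0.883% ± 0.023 at mid (SD, n = 3 each) and 0.896% ± 0.027 at high AHA (SD, n = 2). On stiff gels it was 0.850% ± 0.013, 0.858% ± 0.021 and 0.880% ± 0.030 (SD, n = 3 each). Without Rpl8, Rpl4 and Rplp1 the steps were smaller than the spread. The large subunit genes then held 0.395% ± 0.0054, 0.395% ± 0.017 (SD, n = 3 each) and 0.398% ± 0.016 (SD, n = 2) on soft gels, and 0.384% ± 0.0079, 0.388% ± 0.0078 and 0.395% ± 0.017 (SD, n = 3 each) on stiff gels.

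The small subunit share had no such order. It was 0.377% ± 0.0042, 0.379% ± 0.014 (SD, n = 3 each) and 0.375% ± 0.015 (SD, n = 2) on soft gels with low, mid and high AHA. On stiff gels it was 0.365% ± 0.0058, 0.364% ± 0.015 and 0.372% ± 0.015 (SD, n = 3 each). The whole family took 1.26% ± 0.028 of protein-coding counts on soft (SD, n = 8) and 1.23% ± 0.034 on stiff gels (SD, n = 9), with overlapping ranges. The ratio of large to small subunit counts lay between 2.29 and 2.43 in every library, at 2.34 ± 0.042 on soft (SD, n = 8) and 2.35 ± 0.045 on stiff gels (SD, n = 9). Rpl8, Rpl4 and Rplp1 alone made up 38.0% to 39.9% of the family's counts, so these 3 genes weigh most in the sums.

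**Figure D3:**
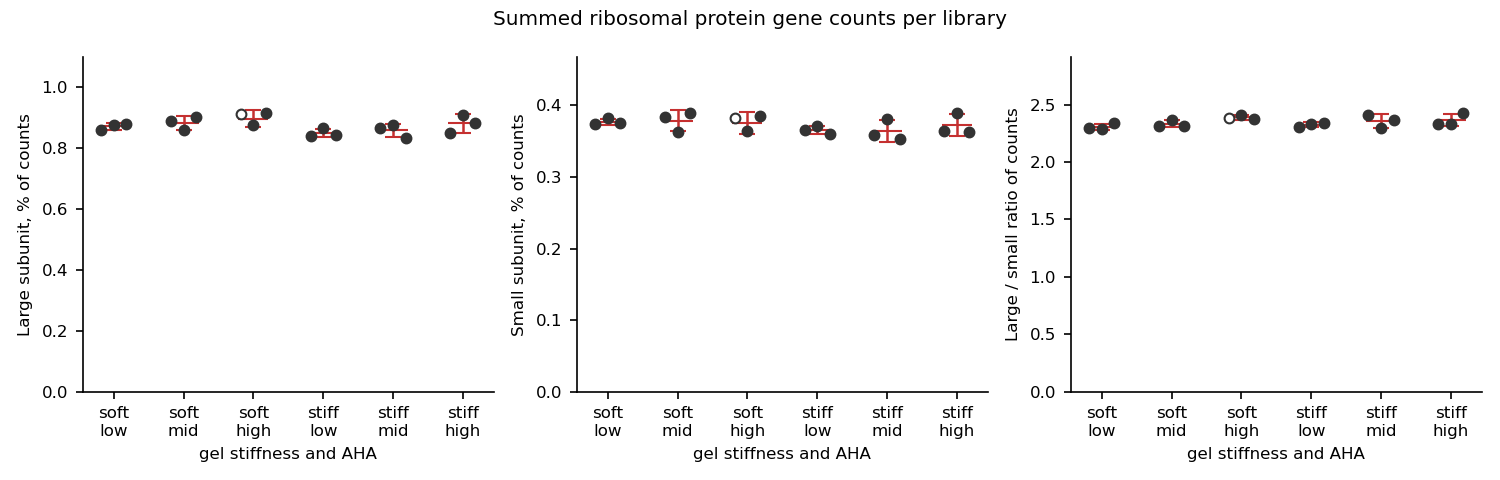
Summed counts of the large subunit genes (left) and of the small subunit genes (middle) as a percentage of protein-coding counts, and their ratio (right), in each library of the 6 groups, with bars for the mean and SD and an open point for the library left out. All axes start at 0, the 8 soft and the 9 stiff libraries overlap in each panel, and the ratio lies between 2.29 and 2.43.

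Single genes were then compared in an edgeR quasi-likelihood fit over all 13443 tested protein-coding genes, with Benjamini-Hochberg adjusted p-values and a threshold of 0.05. To ask for an effect of stiffness irrespective of AHA, the difference soft minus stiff was averaged over the 3 AHA levels. In this comparison 1162 genes passed, 8.64% of those tested, but only 2 of the 84 ribosomal protein genes, or 2.38%. These were Rpl13 and Rpl4, both of the large subunit and both higher on soft gels. At an unadjusted p under 0.05 there were 8 members, 6 of the large and 2 of the small subunit, against 2757 of all genes. The count of 2 became 5 without soft, high AHA replicate 2, 3 without mid AHA replicate 2 of either stiffness, and 1 without soft, high AHA replicate 3 or stiff, mid AHA replicate 1 or 3. Among the genes added without replicate 2 were Rpl23 and Rps2, named after their values were seen, and Rps2 had its lowest level in that library (22 CPM) and its highest in replicate 3 (47.5 CPM). In none of the 84 members did the soft libraries all lie above or all below the stiff ones. Over all genes only 0.394% lay above and 0.870% below, so none among 84 is near that share.

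Rpl13, a large subunit protein, gave the clearest difference. On soft gels it had 74.2, 80.2 and 76.6 CPM at low AHA, 78.7, 83.2 and 83.0 CPM at mid AHA, and 88.2 and 86.9 CPM at high AHA. On stiff gels it had 78.2, 67.3 and 73.0 CPM at low, 74.3, 71.2 and 65.4 CPM at mid, and 77.5, 70.4 and 70.7 CPM at high AHA. The soft libraries lay above the stiff ones at mid and high AHA, and the groups overlapped at low AHA through 1 stiff library. Means were 81.4 ± 4.84 CPM on soft (SD, n = 8) and 72.0 ± 4.27 CPM on stiff gels (SD, n = 9), a log2 fold change of 0.19 ± 0.049 (SE, edgeR adjusted p = 0.00415).

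Rpl13 passed the threshold in all 24 alternatives, with log2 fold changes of 0.17 to 0.20 and adjusted p-values of 0.00208 to 0.0242. Taken alone, low AHA gave a log2 fold change of 0.077 (edgeR adjusted p = 0.776), mid AHA 0.22 (0.131) and high AHA 0.26 (0.158). Of the 50-base words of Rpl13, 19.7% occurred in no other gene and 15 genes shared at least 1 with it. With the counts of its named pseudogene rows added, the averaged log2 fold change was 0.17 (edgeR adjusted p = 0.00819).

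Rpl4 differed less. On soft gels it had 1794, 1850 and 1848 CPM at low, 1881, 1890 and 1886 at mid, and 1857 and 1919 at high AHA. On stiff gels the values were 1743, 1833 and 1751 at low, 1785, 1826 and 1717 at mid, and 1747, 1880 and 1842 at high AHA. Soft libraries lay above stiff ones at mid AHA, and the groups overlapped at low and high AHA.

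Means of Rpl4 were 1866 ± 37.5 CPM on soft (SD, n = 8) and 1792 ± 56.0 CPM on stiff gels (SD, n = 9), a log2 fold change of 0.064 ± 0.020 (SE, edgeR adjusted p = 0.0213). The call rested on single libraries. It was lost without soft, high AHA replicate 3 (edgeR adjusted p = 0.134), stiff, low AHA replicate 1 (0.0658), stiff, mid AHA replicate 1 (0.0508) or 3 (0.0998), or stiff, high AHA replicate 1 (0.106), and when genes of every biotype were tested (0.0588). Over 24 alternatives the log2 fold change stayed between 0.050 and 0.071, and the adjusted p ranged from 0.0143 to 0.134.

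**Figure D4:**
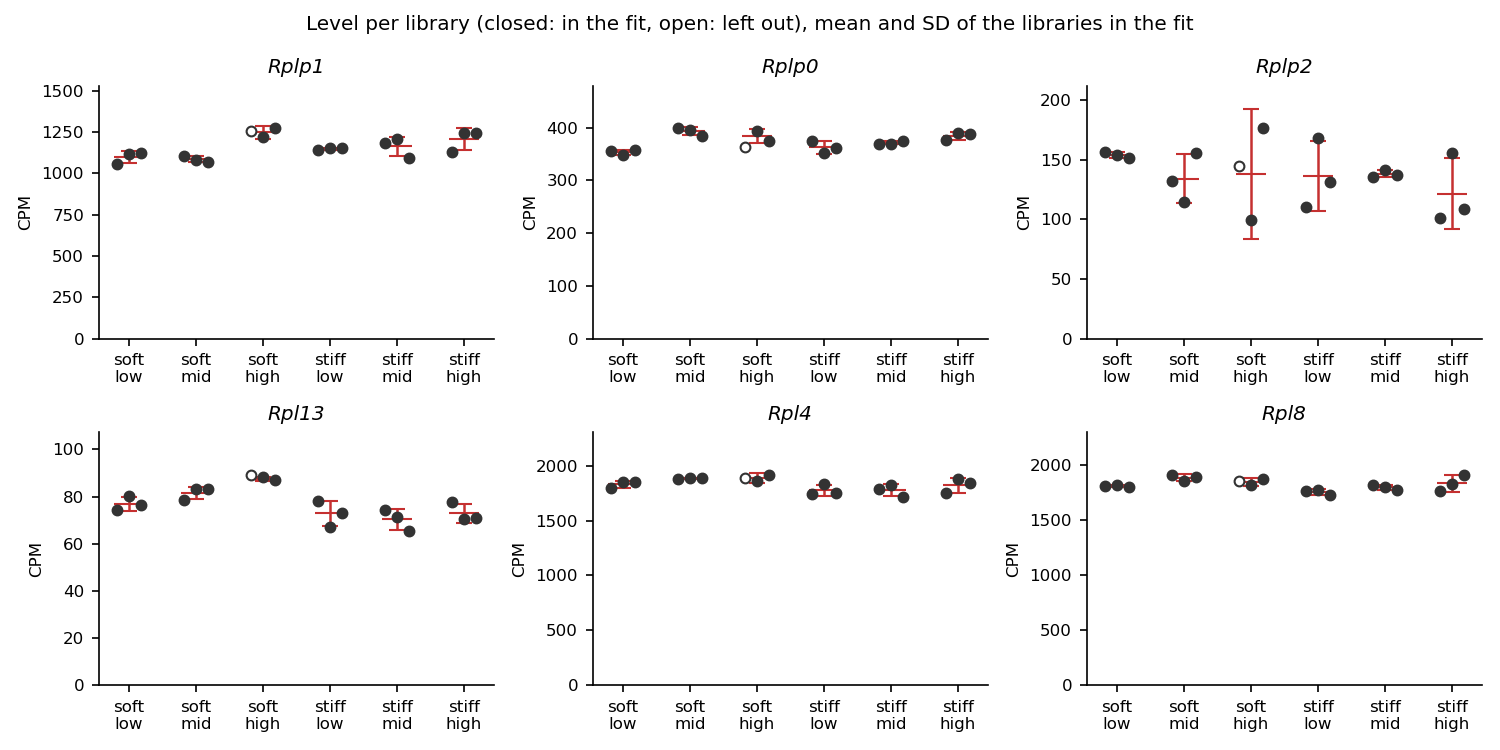
Level in CPM of Rplp1, Rplp0 and Rplp2 (upper row) and of Rpl13, Rpl4 and Rpl8 (lower row) in each library of the 6 groups. Bars give the mean and SD of the libraries in the fit, and an open point the library left out. Of these genes only Rplp1, Rpl13 and Rpl4 were past the threshold in any comparison. Axes start at 0; Rpl13 averages 81.4 CPM on soft and 72.0 CPM on stiff gels, and Rplp1 lies highest among soft gels at high AHA.

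For the remaining members the fit set bounds on how large a difference could be. The 95% interval of the averaged log2 fold change reached 0.133 to either side at the median, from 0.0384 to 0.612. It lay wholly within 0.2 of 0 for 46 of the 84 tested members (27 large, 19 small), within 0.5 for 76 and within 1 for all 84. The estimates themselves were below 0.1 in size for 62 members. The median log2 fold change was 0.026 for the large subunit, with 30 of 51 genes higher on soft gels, and 0.046 for the small subunit, with 26 of 33 higher. Over all tested genes the median was 0.0045 and 51.4% were higher.

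The extreme estimates came with wide errors. Rpl35 had the highest value, 0.33 ± 0.21 (SE, edgeR adjusted p = 0.412), followed by Rps13 at 0.30 ± 0.22 (0.476) and Rpl34 at 0.20 ± 0.082 (0.133). The lowest were Rpl39l at -0.35 ± 0.21 (0.342), Rpl24 at -0.30 ± 0.21 (0.465) and Rpl17 at -0.21 ± 0.13 (0.383). None of these passed the threshold. Without 1 library Rpl24 ran from -0.48 (soft, high AHA replicate 3 left out) to -0.16 (replicate 2 left out), and Rpl34 passed without stiff, high AHA replicate 1 (0.26, edgeR adjusted p = 0.0368).

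Some members were looked at for their known roles, outside the rule for named genes. Rpsa, a small subunit protein also described as a laminin receptor precursor, had 66.0 to 89.7 CPM on soft (median 79.6) and 70.1 to 79.7 CPM on stiff gels (median 77.4), and its soft libraries spread on both sides of the stiff ones. Its averaged log2 fold change was 0.074 ± 0.049 (SE, edgeR adjusted p = 0.429). Rpl5 and Rpl11, which bind Mdm2 when free of ribosomes, gave -0.0013 ± 0.061 (0.993) and 0.048 ± 0.11 (0.872). Rps6, the substrate of the S6 kinases, gave 0.043 ± 0.13 (0.905).

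**Figure D5:**
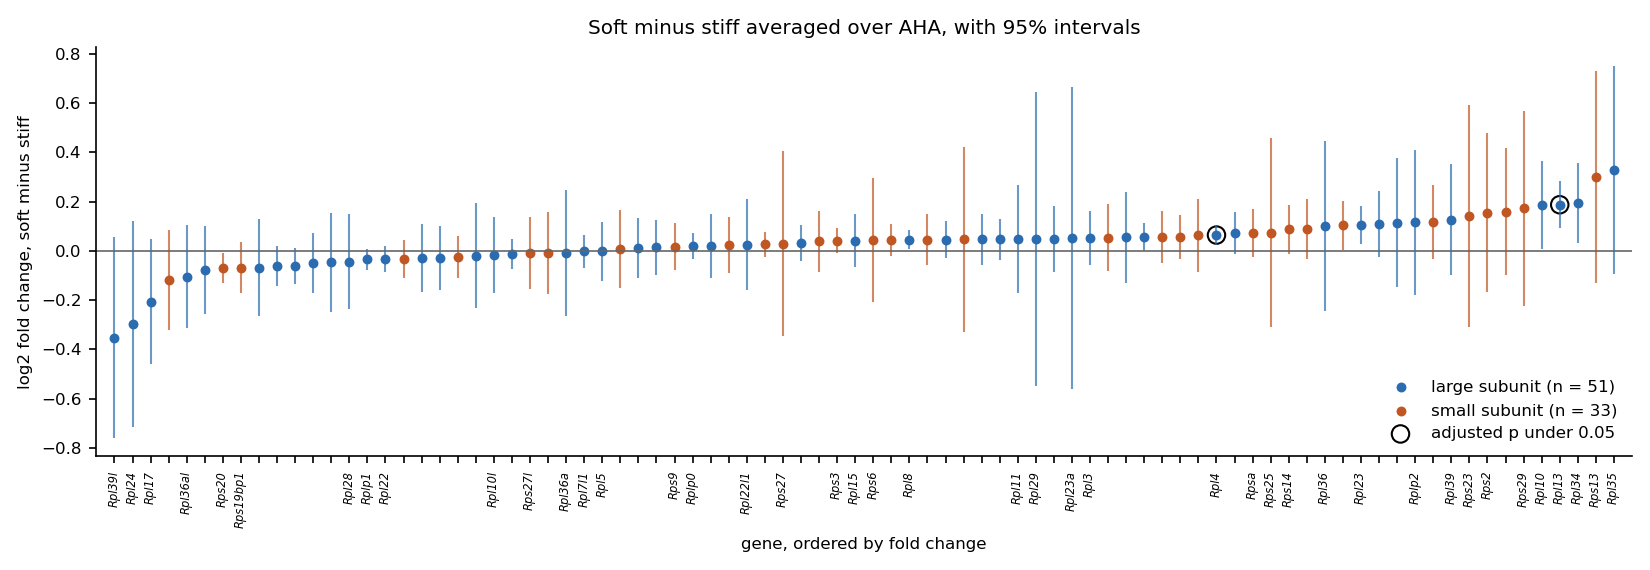
Averaged log2 fold change, soft minus stiff, of the 84 tested ribosomal protein genes in rising order, names given for those described in the text, with vertical lines for the 95% interval, large subunit in blue and small subunit in orange, and circles around the genes with an adjusted p under 0.05. The 2 circled genes are Rpl4 and Rpl13, and the estimates run from -0.35 (Rpl39l) to 0.33 (Rpl35).

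At each AHA level taken alone, no ribosomal protein gene differed between soft and stiff gels past the threshold. At low AHA, 0 of 84 members passed in edgeR and 0 in DESeq2, while 3.02% of all tested genes passed in edgeR. At mid AHA 0 members passed in either tool, against 2.87% of all genes in edgeR. At high AHA 0 members passed in either tool, against 0.885% of all genes in edgeR. The 95% intervals were wider here, reaching 0.220, 0.220 and 0.247 to either side at the median, and lay within 0.5 of 0 for 60, 61 and 56 of the 84 members.

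For the large subunit the medians of the log2 fold change from low to high AHA were 0.047, 0.030 and -0.0065. For the small subunit they were 0.059, 0.034 and 0.037. Over all genes they were 0.0070 at low and 0.0047 at mid AHA and near 0 at high AHA. The 3 comparisons use separate libraries.

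Nearest to the threshold in these comparisons were Rps20 and Rps14, which were singled out after their values were seen. Rps20, a small subunit protein of the head region, had 213, 206 and 222 CPM on soft and 239, 235 and 245 CPM on stiff gels at low AHA. These did not overlap, with every stiff library higher. The log2 fold change was -0.17 ± 0.052 (SE, edgeR adjusted p = 0.0597), and 7 of 25 alternatives placed it past the threshold, with adjusted p-values from 0.0310 to 0.271. Averaged over AHA it was -0.070 (edgeR adjusted p = 0.166).

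Rps14, a small subunit protein of the platform, had 291, 279 and 265 CPM on soft and 224, 241 and 234 CPM on stiff gels at mid AHA. Again the groups did not overlap, here with every soft library higher, and the share over all genes is again not given. The log2 fold change was 0.26 ± 0.080 (SE, edgeR adjusted p = 0.102), and 4 of 25 alternatives placed it past the threshold, with adjusted p-values from 9.7e-05 to 0.326. Replicates of Rps14 were themselves far apart in another group, with 280, 204 and 234 CPM on stiff gels at low AHA.

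The effect of tethering was asked by comparing AHA levels on gels of the same stiffness. On soft gels from low to high AHA, 1 of 84 ribosomal protein genes passed, Rplp1, against 0.245% of all tested genes. At an unadjusted p under 0.05 there were 16 members, 9 of the large and 7 of the small subunit, against 1144 of all 13443 genes. From mid to high AHA on soft gels Rplp1 was again the only member to pass, against 0.0669% of all genes. These comparisons share the high AHA libraries.

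Rplp1 had 1057, 1115 and 1123 CPM at low, 1107, 1082 and 1071 CPM at mid, and 1221 and 1274 CPM at high AHA on soft gels. Both high AHA libraries lay above the other 6 soft libraries, and the left-out one had 1257 CPM. The summed fibroblast markers moved with this, at 119 to 150 CPM in those 6 libraries, 187 and 200 CPM in both high AHA libraries and 178 CPM in the left-out one, and their part in it was not tested. On stiff gels the values were 1143, 1151 and 1153 CPM at low, 1186, 1208 and 1094 CPM at mid, and 1129, 1243 and 1247 CPM at high AHA, so the groups overlapped there. On soft gels the log2 fold change was 0.18 ± 0.040 from low to high (SE, edgeR adjusted p = 0.00672) and 0.20 ± 0.040 from mid to high AHA (adjusted p = 0.00458). On stiff gels it was 0.071 from low to high AHA (edgeR adjusted p = 0.834), and the test of whether stiffness changed the effect of AHA gave an adjusted p of 0.726 (0.0247 unadjusted), so the effects were not shown to differ.

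The Rplp1 call depended on single libraries. From low to high AHA it was lost without soft, low AHA replicate 1 (0.16, edgeR adjusted p = 0.234) or without high AHA replicate 2 (0.21, 0.0943) or 3 (0.15, 0.183), each of the latter leaving 1 high AHA library. From mid to high AHA it was lost without high AHA replicate 3 (0.17, edgeR adjusted p = 0.240). With all 18 libraries the log2 fold changes were 0.19 (edgeR adjusted p = 0.00142) and 0.20 (0.000312). Over 25 alternatives the adjusted p ranged from 0.00142 to 0.234 and from 0.000312 to 0.240. Averaged over AHA, Rplp1 was at -0.034 for soft minus stiff.

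Its partners in the stalk did not pass. Rplp0, the base of the stalk, had 356, 348 and 357 CPM at low, 399, 396 and 384 CPM at mid, and 394 and 375 CPM at high AHA on soft gels. The low AHA libraries lay below the rest, yet the log2 fold change from low to high AHA was 0.12 ± 0.049 (SE, edgeR adjusted p = 0.382). Rplp2, which pairs with Rplp1, had 157, 154 and 152 CPM at low and 99.8 and 177 CPM at high AHA on soft gels. Those 2 libraries lay on both sides of the low AHA group, and the log2 fold change was -0.17 ± 0.25 (SE, edgeR adjusted p = 0.908).

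Other members had larger estimates with larger errors. On soft gels from low to high AHA, Rpl28 was at -0.56 ± 0.18 (SE, edgeR adjusted p = 0.229), Rpl23a at -0.81 ± 0.56 (0.728) and Rps29 at -0.44 ± 0.36 (0.793). Rpl28 had 20.3, 23.0 and 21.6 CPM at low and 11.5 and 18.3 CPM at high AHA, with 24.3 CPM in the left-out high AHA library, above all 5. Its estimate was -0.25 (edgeR adjusted p = 0.905) without high AHA replicate 2 and -0.91 (0.0367) without replicate 3, when it passed along with other members, Rps2 among them, 3 in all and each lower at high AHA. Without 1 library Rpl23a ran from -1.04 (soft, high AHA replicate 3 left out) to -0.53 (soft, low AHA replicate 2 left out), Rps29 from -0.59 (soft, high AHA replicate 3) to -0.22 (soft, low AHA replicate 3), and Rps13 from -0.042 (soft, low AHA replicate 1) to 0.54 (soft, low AHA replicate 2). At the other end were Rps13 at 0.28 ± 0.40 (0.905) and Rpl15 at 0.27 ± 0.10 (0.347). The median was -0.022 for the large and -0.021 for the small subunit, with 25 of 51 and 13 of 33 genes higher at high AHA, and 0.00019 over all genes. Leaving out 1 library moved these medians across 0, from -0.057 to 0.012 and from -0.10 to 0.018. The 95% interval reached 0.246 to either side at the median and lay within 0.5 of 0 for 51 of the 84 members.

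On stiff gels no member passed in any comparison of AHA levels. From low to high AHA 0 members passed in edgeR and 0 in DESeq2, against 0.00744% of all tested genes in edgeR. From mid to high AHA 0 members passed in either tool, and again 0.00744% of all genes in edgeR. From low to mid AHA 0 members passed in either tool, and 0% of all genes in edgeR. From low to mid AHA on soft gels 0 members passed in either tool, and 0% of all genes in edgeR.

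The lowest estimates from low to high AHA on stiff gels were Rps23 at -0.56 ± 0.40 (SE), Rpl29 at -0.55 ± 0.55 and Rps27 at -0.35 ± 0.32. The highest were Rpl23a at 0.59 ± 0.53, Rpl35 at 0.49 ± 0.38 and Rpl36 at 0.46 ± 0.29, all with edgeR adjusted p-values of 0.874 to 0.943. Leaving out 1 library moved Rpl23a between 0.36 (without stiff, low AHA replicate 3) and 0.94 (without replicate 1), and Rpl36 between 0.24 (without stiff, high AHA replicate 1) and 0.77 (without replicate 3). Rps23 ran from -0.84 to -0.31 and Rps27 from -0.44 to -0.21, each without stiff, high AHA replicate 3 and replicate 2 in turn. Rpl23a thus had estimates of opposite sign on soft and stiff gels, neither past the threshold. The median was 0.040 for the large and 0.022 for the small subunit, with 34 of 51 and 21 of 33 genes higher at high AHA, and 0.0014 over all genes. The interaction of stiffness and AHA passed in 0 members in edgeR and in DESeq2, against 0.0298% of all genes in edgeR.

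Across all 6 groups the members with at least 10 CPM stayed close to their own level. Members below 10 CPM do not enter the ratios that follow. Among the 71 tested members with at least 10 CPM, the highest group mean was a median of 1.15 times the lowest, from 1.04 for Rps3 to 1.45 for Rpl28, and for all 71 it was under 1.5 times. The group with the highest mean varied from gene to gene. For the large subunit it was soft, high AHA in 14 of 51 genes, soft, low AHA in 13 and stiff, high AHA in 11, and for the small subunit it was soft, low AHA in 13 of 33 genes. These counts take no account of error, and soft, high AHA has the mean of only 2 libraries.

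The genes around the ribosomal proteins were read from lists of other genes of the pathway, in the averaged comparison of soft and stiff gels in which 8.64% of all genes passed. Fau, a ribosomal protein made as a fusion with a relative of ubiquitin, had a log2 fold change of 0.083 (edgeR adjusted p = 0.562). Of 15 other mRNAs known for a TOP tract, mostly translation factors, 0 passed in edgeR, with 2 at an unadjusted p under 0.05 and a median of 0.022, where Hnrnpa1 (0.12, adjusted p = 0.119), Eif4b (0.054, 0.126) and Eef2 (0.034, 0.284) came nearest. Of 14 genes of RNA polymerase I and its factors 0 passed, with 0 at an unadjusted p under 0.05, and the nearest were Ubtf (0.043, edgeR adjusted p = 0.319), Twistnb (0.10, 0.391) and Znrd1 (-0.12, 0.473).

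Ribosome biogenesis factors, which process ribosomal RNA and assemble subunits in the nucleolus, passed in 3 of 45, all lower on soft gels. These were the helicase Ddx21 (-0.081, edgeR adjusted p = 0.00446), the box H/ACA protein Nhp2 (-0.11, 0.00767) and Ebna1bp2 (-0.10, 0.0207). The list's median was -0.024, with 34 of 45 genes lower. At low AHA alone 21 of 45 were lower (median 0.0064), at mid AHA 37 (-0.056) and at high AHA 36 (-0.032). Of 76 tested mitochondrial ribosomal protein genes 2 passed, Mrpl18 (-0.14, edgeR adjusted p = 0.0184) and Mrpl20 (-0.16, 0.0429), and the next was Mrpl45 (0.10, 0.0618).

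Among 14 regulators of ribosomal protein synthesis 3 passed. Myc, which drives transcription of ribosome genes, had 107 ± 6.24 CPM on soft (SD, n = 8) and 125 ± 7.31 CPM on stiff gels (SD, n = 9) and a log2 fold change of -0.22 ± 0.041 (SE, edgeR adjusted p = 2.34e-05). Its relative Mycn did not differ past the threshold (0.0014, edgeR adjusted p = 0.985). Tsc1, an inhibitor of mTOR complex signalling, was higher on soft gels (0.20, edgeR adjusted p = 0.00337), as was Mtor itself (0.13, 0.00767). Of 9 genes of the p53 axis, which senses free ribosomal proteins, 2 passed, Mdm4 higher (0.26, edgeR adjusted p = 2.24e-10) and Ccng1 lower (-0.083, 0.0160) on soft gels, with Bbc3 next (0.21, 0.0587).

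Of 8 pluripotent cell markers 6 passed, all higher on soft gels, among them Nanog (0.38), Esrrb (0.35) and Sox2 (0.20). Of 6 tested fibroblast markers 1 passed, Col1a1, lower on soft gels (-0.49, edgeR adjusted p = 0.00283), and of 8 primitive endoderm markers 1 passed, Lama1, higher on soft gels (0.34). Their part in the values of Rpl13 and Rpl4 was not tested.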

How the data were processed

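Total RNA was made into libraries with a pico mammalian v2 kit. According to the labels and the study's methods, the authors trimmed reads with Trim Galore 0.4.4, aligned them with GSNAP to the mouse genome mm10 (GRCm38) and counted reads per gene with HTSeq. They deposited raw counts per gene for each of the 18 libraries. Whether counting used strand, and how reads that fit several places were treated, is not given in the sources used here, so counts of genes with near-identical copies are uncertain.

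Of 46078 gene identifiers 45229 matched a symbol in the GENCODE M21 annotation and 849 did not. Rows of spike-ins and of reads without a gene did not enter the library sizes, and 35.9% to 38.5% of each library was recorded as not aligned. Protein-coding counts were filtered with filterByExpr (minimum count 10), scaled by TMM and fitted in edgeR 4.0.16 (R 4.3.3) by the robust quasi-likelihood method, with 1 coefficient per group and 17 libraries. The biological coefficient of variation was 5.35%. Genes were called at a Benjamini-Hochberg adjusted p under 0.05 over 13443 genes. Intervals are the estimate with the 95% limits of the same fit, and CPM values use the TMM library sizes. DESeq2 1.42.0, other scalings, filters and gene sets, and the loss of each library in turn were alternatives. Replicate numbers follow sample order and pair nothing across groups.

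Named genes were the members called in any comparison, the 3 highest and 3 lowest fold changes of the averaged comparison and of low to high AHA on each stiffness, the 5 highest and 5 lowest levels per length, paralogues and members that failed the filter, and the 3 lowest adjusted p-values of each other list. Some genes that the rule names are not reported here. The members and lists were chosen with earlier results of these data known. Words of 50 and 75 bases were compared with all annotated transcripts in Python 3.11.15.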

Additional observations from a re-analysis of the deposited data

Results flagged for a closer look

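Rows outside the comparisons held signal of the same family. The table has 268 rows whose symbols mark them as pseudogene copies of a ribosomal protein gene, and they held a median of 8802 counts per library (6881 to 10376), equal to 13.0% of the members' own counts. Of these rows 237 had at least 1 count, 75 had a median of at least 10, and the 10 highest held 61.3% of the total. In 16 rows the median count was above that of the parent gene, among them Rpl14-ps1 (median 1466), Rpl3-ps1 (1158) and Rps13-ps1 (167). Whether these are transcripts of the copies or reads of the parent genes placed there was not tested. Per 100 member counts, the rows held 13.1 ± 0.22 on soft (SD, n = 8) and 12.9 ± 0.42 on stiff gels (SD, n = 9), ranges that overlapped.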

How the results depend on the processing

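Counts of ribosomal protein genes past the threshold were small, so single genes moved them. For soft minus stiff at low AHA there was 1 call with pseudogene counts added and 1 with only the groups compared in the fit, at mid AHA 1 with a filter of at least 2 counts and 1 with only the groups compared, and at high AHA 1 with all 18 libraries. The averaged comparison gave 1 call with all biotypes, and low to high AHA on soft gels gave 2 with all 18 libraries. Low to mid AHA on soft gels and mid to high AHA on stiff gels each gave 1 with the filter of at least 2 counts and 1 with only the groups compared. In alternatives chosen after seeing the data, another soft, high AHA library was left out in place of the one with a high spike-in share. Without replicate 2 instead, the averaged comparison gave 5 calls (Rpl13, Rpl23, Rpl4 and Rps2 among them), high AHA 1 and low to high AHA on soft gels 3. Without replicate 3 instead, the averaged comparison gave 1 and low to high AHA on soft gels 2.

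Leaving out 1 library at a time gave 0 to 1 calls at low, at mid and at high AHA, 1 to 5 averaged, 0 to 3 from low to high and 0 to 1 from mid to high AHA on soft gels, 0 to 1 from low to high AHA on stiff gels, 0 to 1 for the interaction, and 0 to 0 for the others. The libraries that moved these counts by over 1.5 times, or to or from 0, were soft, high AHA replicates 2 and 3, soft, low AHA replicate 1, stiff, low AHA replicates 1 and 2, stiff, mid AHA replicates 1 and 3, and stiff, high AHA replicates 1 and 3. A group reduced to 1 library is assumed to vary like the rest. The median log2 fold changes ranged, for the large subunit, from 0.012 to 0.034 averaged, -0.057 to 0.012 from low to high AHA on soft and 0.037 to 0.062 on stiff gels, and for the small subunit from 0.029 to 0.057, -0.10 to 0.018 and -0.0077 to 0.024. The lowest of these, -0.10, came without soft, high AHA replicate 3.

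Rps13 and Rpl23a, with few counts, changed sign without passing the threshold. From low to high AHA on soft gels Rps13 was at -0.14 with pseudogene counts added and, with 1 library left out, between -0.042 (without soft, low AHA replicate 1) and 0.54, and Rpl23a was at 0.025 with pseudogene counts added. The family's share was 0.880% of all gene counts on soft and 0.866% on stiff gels, and 1.42% and 1.39% of protein-coding counts with the pseudogene rows added. The cause was not tested in these cases. Other scalings (DESeq2 size factors, TMM without the family) changed no count by more than 1.5 times. No paired analysis was possible because the replicate numbers only follow sample order. Depth limits the members with few counts, whose differences were not detectable below about their 95% interval.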
